A study of Mus musculus with 9 samples.

Results

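Afp, Gpc3, Dlk1 and Igf2bp3, 4 genes of the fetal liver that are switched on again in liver tumours, were followed in mouse liver together with Zbtb20 and Zhx2, 2 genes that encode repressors of Afp. These 6 genes were chosen by name from the 21873 genes of the expression table, with their levels in the same libraries already known. Their differences between groups are therefore given as descriptions, with no p, and their calls in the fit over all genes describe this choice and support nothing. RNA was sequenced from the livers of 9 male C57BL/6 mice, 3 in each group, and no engineered allele is named in the labels. The control group had intraperitoneal saline for 8 weeks, and the TAA group had thioacetamide, a compound that injures hepatocytes and scars the liver, at 200 mg/kg every 3 days for 8 weeks. Both groups were sampled 72 h after the final injection. The recovery group had the same 8 weeks of thioacetamide and then 8 weeks without it, so it was older at sampling than the other groups, and the time since injury and the age of the mice cannot be told apart.

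In the fetal liver, hepatoblasts make large amounts of alpha-fetoprotein, the product of Afp, and the gene is shut down within weeks of birth while its neighbour Alb, encoding albumin, stays on. Zbtb20, a zinc finger protein, binds the Afp promoter and represses it after birth. Zhx2, a zinc finger and homeobox protein, was found as the locus behind strain differences in adult Afp, and it also holds down Gpc3 and H19. In regenerating or tumour-bearing liver some of these fetal genes come back, and serum alpha-fetoprotein and liver glypican-3 are used as tumour markers.

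The values are FPKM (fragments per kilobase of transcript per M mapped fragments), which were set on a common scale by dividing each library by its median ratio to the others (scaled FPKM). These divisors were 0.827 to 0.878 for control libraries, 1.29 to 1.38 for TAA libraries and 0.893 to 0.907 for recovery libraries, so that the scaling moved the TAA group by 0.64 on the log2 scale relative to the control group. The sequencing depth, estimated from the steps between low FPKM, was 26.9 to 35.5 M fragments for control libraries, 38.6 to 40.4 M for TAA libraries and 34.9 to 40.7 M for recovery libraries. None of the 11 hepatocyte markers was at 0 in all libraries of a group. In TAA mouse 3, the summed scaled FPKM of 7 skeletal muscle markers was 36.8, against at most 0.0783 in any other library. In recovery mouse 3, the summed scaled FPKM of 8 adrenal cortex markers was 6.51, against 0.627 and 0.628 in the other recovery mice, 0.426 to 1.10 in control mice and 2.08 to 4.11 in TAA mice. Log2 fold changes are of scaled FPKM + 0.1, for the 14094 genes whose mean FPKM reached 0.1. All 6 genes passed this filter, but Dlk1 (mean 0.133) and Igf2bp3 (mean 0.105) passed only through the TAA group, in which they are high.

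Afp was low in control liver, reached the level of a moderately expressed gene in the TAA group and was low again in recovery. It lies on chromosome 5 (chr5:90489535-90515724 in the mm10 coordinates of the table, plus strand). In control mice 1, 2 and 3 its scaled FPKM was 0.629, 0.535 and 0.393. In the TAA mice it was 30.9, 52.0 and 38.1. In the recovery mice it was 0.334, 0.244 and 0.250. Every TAA mouse lay far above every other mouse, and every recovery mouse lay below every control mouse. The group means were 0.519 ± 0.119, 40.3 ± 10.7 and 0.276 ± 0.0506 (SD, n = 3), a ratio of 77.7 between the TAA and control means and of 146 between the TAA and recovery means. The log2 fold change was 6.01 (SE 0.22) in TAA versus control, which placed Afp 12th from the top among the tested genes, and -6.72 (SE 0.20) in recovery versus TAA. The recovery group differed from the control group by -0.71 (SE 0.21). That last difference rests on an estimated 29.9 to 54.7 fragments per library, where the TAA libraries had 5422 to 8996. In whole liver, a change in the number of cells of a type and a change in RNA per cell cannot be told apart.

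The promoters of Afp and Gpc3 are shown because these 2 genes had the highest levels in the TAA group among the 4 fetal genes and their promoters are built differently. Each window holds the 250 bases before the start in RefSeq (GRCm38.p6), none of which lies in an annotated exon of GENCODE M21. The Afp window is chr5:90490464-90490713 on the plus strand and the Gpc3 window is chrX:52613975-52614224 on the minus strand. The Afp locus of the table is wider than that of GENCODE M21 (chr5:90490737-90508907), so the Afp window lies inside the former and before the start of the latter. Capitals mark the letters GTTAAT (part of an HNF1 site), CCAAT (in Afp on the minus strand, where it reads ATTGG) and TATAAA, and no other motif was searched for.
Afp: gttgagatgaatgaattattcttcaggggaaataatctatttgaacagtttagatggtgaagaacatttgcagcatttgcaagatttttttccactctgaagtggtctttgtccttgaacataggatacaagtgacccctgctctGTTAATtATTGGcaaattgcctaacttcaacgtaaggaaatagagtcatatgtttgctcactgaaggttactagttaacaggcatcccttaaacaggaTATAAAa
Gpc3: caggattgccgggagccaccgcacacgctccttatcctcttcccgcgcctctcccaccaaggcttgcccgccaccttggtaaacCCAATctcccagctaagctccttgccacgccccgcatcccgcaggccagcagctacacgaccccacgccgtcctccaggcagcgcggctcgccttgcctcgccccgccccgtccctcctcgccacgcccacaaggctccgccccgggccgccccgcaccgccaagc
In the Afp window, GTTAAT stands 105 to 100 bases before the RefSeq start, the inverted CCAAT 98 to 94 bases before it, and TATAAA 7 to 2 bases before it. The start of the gene in GENCODE lies 23 bases further on, which puts TATAAA 30 to 25 bases before that start. Over 32851 promoter windows of this length, searched on both strands, GTTAAT was in 6.43%, CCAAT in 33.85% and TATAAA in 12.37%. The Afp window had a GC content of 36.0% and 1 CG dinucleotide, against medians of 52.4% and 6 over all windows. The Gpc3 window had a GC content of 71.6% and 25 CG dinucleotides, with CCAAT 166 to 162 bases before the start as its single match. The windows of Dlk1 and Igf2bp3 had GC contents of 54.8% and 60.4%, with no match in Dlk1 and CCAAT in Igf2bp3. The Zbtb20 window (chr16:43247034-43247283), which precedes a RefSeq start inside the Zbtb20 locus of the table and not at its first base, had a GC content of 44.8% and no match. A match is a string of letters and not a measured binding site, and binding was not measured in these libraries.

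Gpc3, which encodes the cell surface proteoglycan glypican-3, a regulator of growth factor signals in the embryo, followed the same course at a lower level. It lies on chromosome X (chrX:52272426-52613950, minus strand). Its scaled FPKM was 0.226, 0.342 and 0.259 in control mice 1, 2 and 3. The TAA mice had 8.76, 10.5 and 13.3. The recovery mice had 0.144, 0.267 and 0.933. Each TAA mouse was above all others, while recovery mouse 3 stood above every control mouse and recovery mouse 1 below every one. The means were 0.275 ± 0.0601, 10.8 ± 2.30 and 0.448 ± 0.425 (SD, n = 3), and the TAA mean was 39.4 times the control mean. The log2 fold change was 4.86 (SE 0.20) in TAA versus control and -4.58 (SE 0.48) in recovery versus TAA. Against the control group the recovery group differed by 0.28 (SE 0.52), and by -0.32 when recovery mouse 3 was left out. The adrenal cortex markers were highest in that same library, and their part in its Gpc3 level was not tested.

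Dlk1, an imprinted gene for a membrane protein of the Notch ligand family that is abundant on fetal hepatoblasts, was listed at 0 in all 3 control libraries. It lies on chromosome 12 (chr12:109452823-109463336, plus strand). Its scaled FPKM in TAA mice 1, 2 and 3 was 0.151, 0.351 and 0.374, which is an estimated 44.4, 102 and 113 fragments. In recovery mice 1, 2 and 3 it was 0.0131, 0.00596 and 0.00589, which is an estimated 2.33, 1.23 and 1.23 fragments. The TAA group was thus clear of both other groups, whereas the recovery values rest on so few fragments that a difference from the control group is not detectable at this depth. The fitted log2 fold changes of Dlk1, 1.92 in TAA versus control and -1.80 in recovery versus TAA, are used for its calls and plots, but they are set by the 0.1 added to each value and are no measure of size.

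Igf2bp3, which encodes an RNA-binding protein of embryonic tissues that binds Igf2 mRNA, was low in every group. It lies on chromosome 6 (chr6:49085223-49214957, minus strand). Its scaled FPKM was 0.0425, 0.0260 and 0.0161 in control mice 1, 2 and 3. Values in TAA mice were 0.173, 0.219 and 0.248. Values in recovery mice were 0.0103, 0.00618 and 0.0106. The TAA mice were the 3 highest and the recovery mice the 3 lowest. The TAA mean of 0.213 ± 0.0377 was 7.56 times the control mean of 0.0282 ± 0.0133 (SD, n = 3), and the recovery mean was 0.00904 ± 0.00248. Control values rest on an estimated 3.80 to 7.72 fragments per library and recovery values on 1.83 to 3.20. The log2 fold changes of 1.29 (SE 0.24) and -1.52 (SE 0.25) understate the ratios, since the level is near the added 0.1. With quantile normalization they were 0.30 and -0.71.

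**Figure D1:**
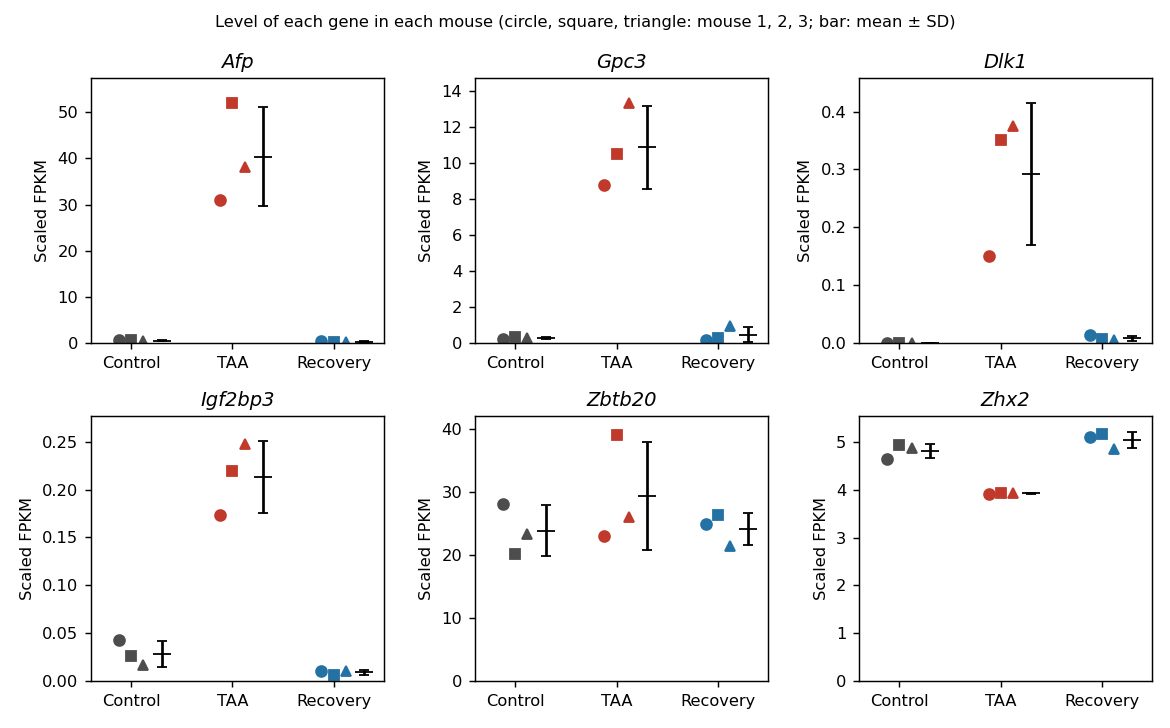
Scaled FPKM (vertical axis, linear, from 0) of the 6 genes in each mouse of the control, TAA and recovery groups, with circles, squares and triangles for mice 1, 2 and 3 and bars for the mean ± SD. Afp reaches 30.9 to 52.0 in the TAA group and stays under 0.63 elsewhere, while Zbtb20 overlaps across all groups and Zhx2 spans 3.91 to 5.16.

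The mRNA of the repressors showed no change of comparable size. Zbtb20 lies on chromosome 16 (chr16:42875881-43642602, plus strand) and was the more abundant of the repressors per unit of length. Its scaled FPKM was 28.1, 20.1 and 23.3 in control mice 1, 2 and 3. In the TAA mice it was 23.0, 39.1 and 26.1. In the recovery mice it was 24.9, 26.3 and 21.4. The groups overlapped in every comparison, and TAA mouse 2 was the highest of the 9. The means were 23.8 ± 4.03, 29.4 ± 8.52 and 24.2 ± 2.55 (SD, n = 3), and the log2 fold changes were 0.28 (SE 0.21) in TAA versus control and -0.25 (SE 0.19) in recovery versus TAA. When FPKM were scaled by their total in place of median-of-ratios factors, these became 1.10 and -1.01, and Zbtb20 was then called.

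Zhx2 lies on chromosome 15 (chr15:57694665-57839832, plus strand) and varied little between mice of a group. Its scaled FPKM was 4.65, 4.93 and 4.87 in control mice 1, 2 and 3. The TAA mice had 3.91, 3.94 and 3.94. The recovery mice had 5.12, 5.16 and 4.85. Each TAA mouse was below all control and recovery mice, which overlapped with each other. The means were 4.82 ± 0.147, 3.93 ± 0.0167 and 5.04 ± 0.165 (SD, n = 3), with log2 fold changes of -0.29 (SE 0.10) and 0.35 (SE 0.10). This direction depends on the scaling. With FPKM as deposited, the log2 fold changes of Zhx2 were 0.34 and -0.20, and with scaling by the FPKM total they were 0.52 and -0.40. The difference of Zhx2 was under 2-fold with each of the 4 scalings.

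**Figure D2:**
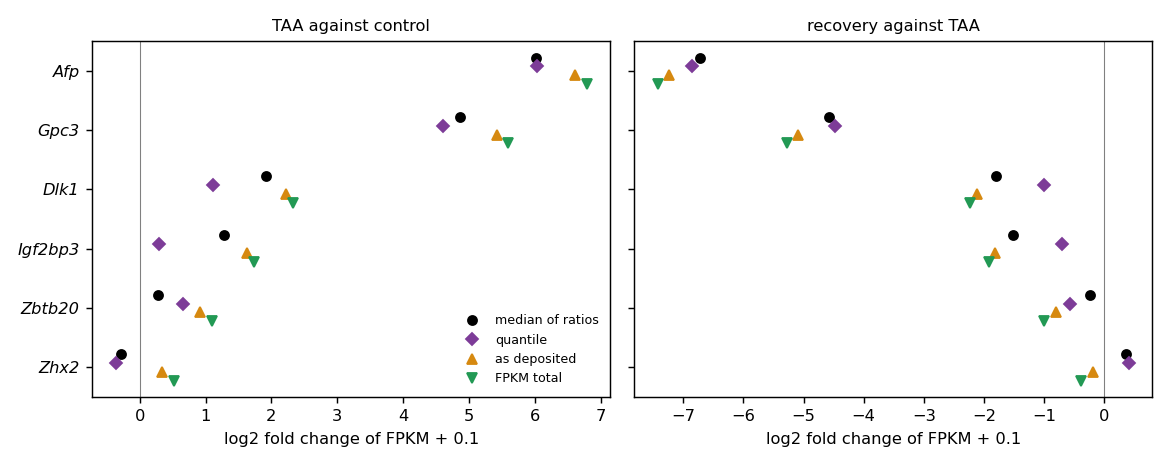
Log2 fold change of FPKM + 0.1 (horizontal axis) of the 6 genes in TAA versus control and in recovery versus TAA, under 4 scalings of the libraries. Afp lies at 6.01 to 6.79 in the TAA group with every scaling, while Zhx2 lies on either side of 0, from -0.36 to 0.52.

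By the criteria used for all genes (limma, Benjamini-Hochberg FDR < 0.05 and a change of 2-fold or more), Afp, Gpc3, Dlk1 and Igf2bp3 were called higher in TAA versus control, where 17% of all tested genes were called higher and 8.02% lower. The same 4 genes were called lower in recovery versus TAA, where 14.3% of the tested genes were called lower and 7.12% higher. In the recovery group against the control group none of the 6 was called, with 0.582% of genes called higher and 0.412% lower. These comparisons share libraries, and since the genes were picked on their levels in them, the counts describe the choice. The same holds for groups that did not overlap. Every TAA mouse was above every control mouse for the 4 fetal genes, as it was for 32.6% of all tested genes, and every TAA mouse was below every control mouse for Zhx2, as for 31% of genes. Every recovery mouse was below every TAA mouse for the 4 fetal genes (31% of genes) and above every TAA mouse for Zhx2 (29.4% of genes). Against the control group, every recovery mouse was lower for Afp and Igf2bp3 (15.6% of genes) and higher for Dlk1 (14.6% of genes). For Dlk1 this rests on 0 in the controls and 1.23 to 2.33 estimated fragments in recovery. For Igf2bp3 it rests on an estimated 3.80 to 7.72 fragments in the controls and 1.83 to 3.20 in recovery.

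Ratios of FPKM within a library do not depend on the scaling between libraries, and they set Afp and Gpc3 mRNA against the mRNA of the repressors. The repressor proteins were not measured. The FPKM ratio of Afp to Zhx2 was 0.135, 0.108 and 0.0808 in control mice 1, 2 and 3. Values in TAA mice were 7.92, 13.2 and 9.67. Values in recovery mice were 0.0654, 0.0473 and 0.0515. Afp mRNA thus stood below Zhx2 mRNA in every control and recovery mouse and above it in every TAA mouse, with differences of 6.57 and -7.53 in mean log2 ratio for TAA versus control and recovery versus TAA. The ratio of Afp to Zbtb20 was 0.0224, 0.0266 and 0.0169 in the control mice. In the TAA mice it was 1.35, 1.33 and 1.46. In the recovery mice it was 0.0134, 0.00927 and 0.0117. Within the TAA group this ratio spread less (SD 0.07 on the log2 scale) than that of Afp to Zhx2 (SD 0.37), and TAA mouse 2 had both the highest Afp and the highest Zbtb20. With 3 mice this is a description and no correlation is given.

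Gpc3 remained below Zbtb20 in all mice and passed Zhx2 only in the TAA group. Its FPKM ratio to Zhx2 was 2.24, 2.66 and 3.38 in TAA mice 1, 2 and 3, and 0.0281 to 0.192 in the other 6 mice. Its ratio to Zbtb20 was 0.381, 0.268 and 0.510 in the TAA mice. The mean log2 ratio of Gpc3 to Zhx2 differed by 5.59 between the TAA and control groups, by -5.38 between the recovery and TAA groups and by 0.22 between the recovery and control groups. The ratio of Zbtb20 to Zhx2 was 6.04, 4.08 and 4.78 in the control mice. The TAA mice had 5.88, 9.92 and 6.63. The recovery mice had 4.86, 5.10 and 4.40. Zbtb20 was 4.08 to 9.92 times as high as Zhx2 over the 9 libraries, and the ratios of the control and TAA groups overlapped, whereas every TAA ratio lay above every recovery ratio.

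**Figure D3:**
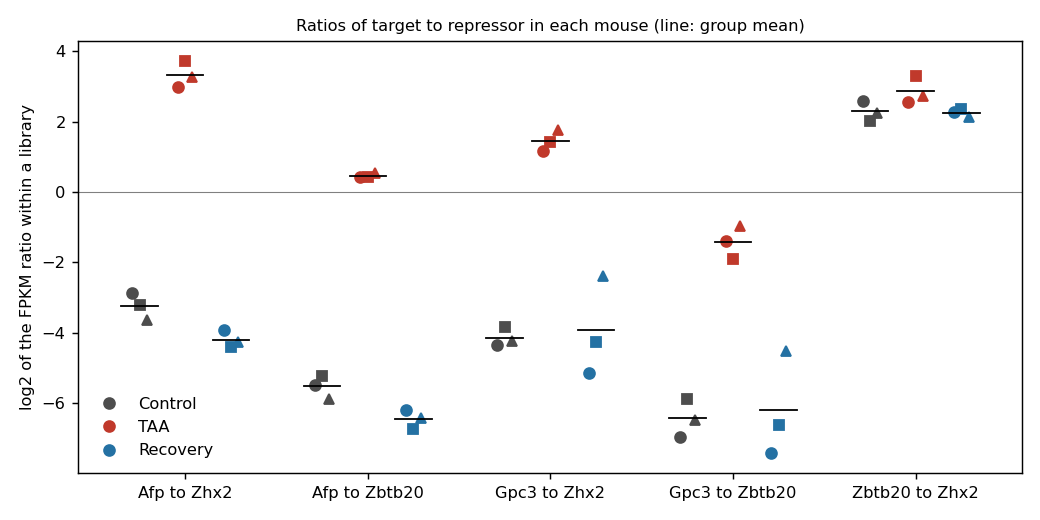
Log2 of the FPKM ratio within a library (vertical axis) for 5 pairs of genes in each mouse, with circles, squares and triangles for mice 1, 2 and 3 and a line for the group mean. The Afp to Zhx2 ratios of the TAA group lie above 0 and those of the control and recovery groups below it, with group means 6.57 apart between TAA and control, whereas the Zbtb20 to Zhx2 ratios differ by 0.57.

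The 4 fetal genes differed in which TAA mouse was highest. Afp was highest in TAA mouse 2, while Gpc3, Dlk1 and Igf2bp3 were highest in TAA mouse 3, and all 4 were lowest in TAA mouse 1. TAA mouse 3 is also the library with skeletal muscle markers, and their part in these levels was not tested. With any single mouse left out, TAA mouse 3 included, the log2 fold change in TAA versus control was 5.81 to 6.18 for Afp, 4.69 to 4.99 for Gpc3 and 1.19 to 1.38 for Igf2bp3. Afp did not reach the level of its neighbour. Per 100000 FPKM of Alb, which is about the most abundant liver mRNA, Afp had 2.26, 1.76 and 1.47 FPKM in control mice 1, 2 and 3. It had 133, 251 and 219 in the TAA mice. It had 0.987, 0.700 and 0.681 in the recovery mice.

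Of the 14094 tested genes, the 3 with a pattern most like that of each gene were found by Pearson's r of log2(scaled FPKM + 0.1) over the 9 libraries. Since the libraries of a group share their treatment, r mostly reflects the difference between groups and is given as a description. The closest to Afp were Ccng1 (r = 0.998), Topbp1 (r = 0.995) and Mcm3 (r = 0.994). Ccng1 encodes cyclin G1, and Topbp1 and Mcm3 encode proteins of DNA replication. All 3 shared with Afp a recovery mean under the control mean. The closest to Gpc3 were Slpi, Neurl1a and H1fx, with r of 0.996, 0.994 and 0.991. For Dlk1 they were Acsm4 (r = 0.995), Ptprn and Csn3 (both r = 0.994), and the recovery means of Acsm4 and Csn3 were listed at 0. For Igf2bp3 they were Nptx1, Dctd and Poc1a, with r of 0.995, 0.994 and 0.992. For Zbtb20 the best matches were looser, at 0.957 for Tasor2, 0.932 for Smarcad1 and 0.921 for Tbc1d23. For Zhx2 they were Ergic1, Bptf and Hal, each with r = 0.988. Hal encodes the hepatocyte enzyme histidine ammonia-lyase, whose mean scaled FPKM was 92.9 in control, 22.5 in TAA and 125 in recovery mice.

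Most of the other tested genes on a list of genes active in fetal liver or hepatoma moved with these 4. The list holds 28 genes, of which 4 are Afp, Gpc3, Dlk1 and Igf2bp3 and 17 of the remaining 24 passed the filter. Of these 17, 13 were called higher and 0 lower in TAA versus control (17% and 8.02% of all tested genes). Their median log2 fold change was 2.60, where the median of all tested genes was 0.02. At an unadjusted p under 0.05 (limma) 14 of the 17 were higher and 0 lower, as were 30.9% and 29.1% of all tested genes. The list was chosen with these data known and is no independent evidence of a direction. In recovery versus TAA 13 were called lower and 0 higher (14.3% and 7.12% of all tested genes), with a median of -1.97 against -0.01 for all tested genes. Cell surface proteins led the list in the TAA group. Prom1 (CD133) rose by 4.67 on the log2 scale (SE 0.26) from a mean scaled FPKM of 0.346 to 11.0, and fell by 3.73 in recovery. Epcam rose by 4.21 (SE 0.23), Cd24a by 4.07 (SE 0.30) and Ly6d by 5.34 (SE 0.39). Mdk, encoding the secreted growth factor midkine, rose by 3.75, Scd2, a fatty acid desaturase of embryonic liver, by 3.68, and Pkm, the pyruvate kinase gene that replaces the adult liver form in fetal tissue, by 2.26. These 7 genes were picked from that list for their rise, so no p is given for them.

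Epcam was the single gene of this list that was called in recovery versus control. Its scaled FPKM was 0.249, 0.377 and 0.499 in control mice 1, 2 and 3. It was 1.10, 1.52 and 1.48 in the recovery mice. The log2 fold change was 1.65 (SE 0.25, limma adjusted p = 0.031), and the call was lost when any 1 of the 6 mice was left out. Epcam, Prom1 and Cd24a also mark bile duct epithelium. All 7 tested cholangiocyte markers, Epcam among them, were called higher in the TAA group, as were 17% of all tested genes. The summed scaled FPKM of the 8 listed cholangiocyte markers was 15.8 to 21.5 in control mice, 307 to 453 in TAA mice and 29.0 to 39.5 in recovery mice.

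Some of the best known fetal genes were under the filter or not called. Lin28b was listed at 0 in all 9 libraries, and Lin28a, Igf2bp1, Sall4, Hmga2 and Trim71 were under the filter, with mean scaled FPKM of 0 to 0.0124 in control, 0.00989 to 0.0852 in TAA and 0.00208 to 0.0266 in recovery mice. These 5 genes were not tested. Each was higher in every TAA mouse than in every control mouse, as were 32.6% of all tested genes. Such levels rest on few fragments. Igf2bp1 had an estimated 0.512 to 12.2 in the TAA libraries and Sall4 1.10 to 5.49, both with 0 in the control libraries. Sall4 also had 1.10 to 3.26 in the recovery libraries. Hmga1 and Plag1 were tested and not called, and their groups overlapped. Their log2 fold changes were -0.38 and -0.26 in TAA versus control and 0.17 and 0.05 in recovery versus TAA. Igf2, the fetal growth factor whose mRNA Igf2bp3 binds, was not called. Its scaled FPKM was 0, 0.0674 and 0.205 in control mice 1, 2 and 3. It was 0.0789, 0.0849 and 0.848 in the TAA mice and 0, 0.0766 and 0.0383 in the recovery mice. The 1 high value is in TAA mouse 3, the library with skeletal muscle markers. H19 was not analysed here.

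**Figure D4:**
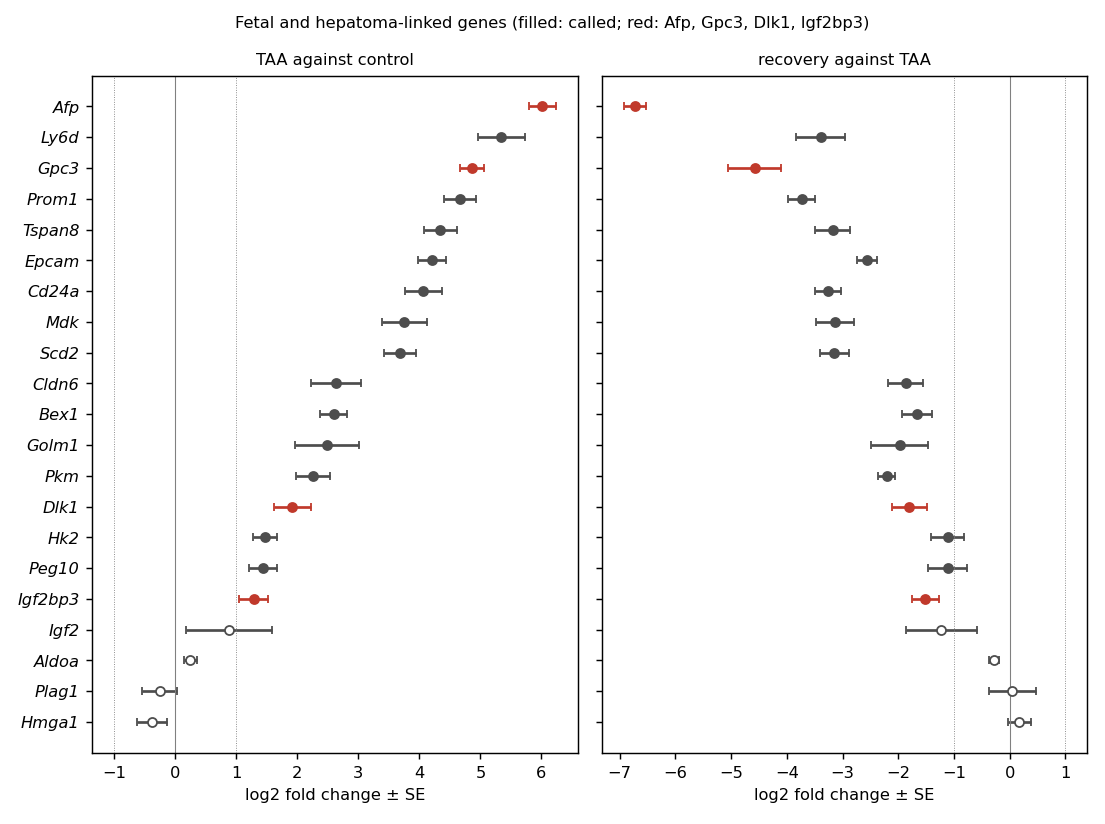
Log2 fold change with SE (horizontal axis) of the 21 tested genes of the fetal and hepatoma-linked list in TAA versus control and in recovery versus TAA, with filled points for called genes, dotted lines at 2-fold and Afp, Gpc3, Dlk1 and Igf2bp3 in red. Of the 17 genes in grey, 13 are called higher in the TAA group and 13 lower in recovery.

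Dlk1 belongs to the imprinted genes, which are expressed from 1 parental copy. Of 10 other imprinted growth genes tested, 4 were called higher in the TAA group and 0 lower (17% and 8.02% of all tested genes), with a median log2 fold change of 0.80. At an unadjusted p under 0.05 (limma) 7 were higher and 1 lower, as were 30.9% and 29.1% of all tested genes. Plagl1, a zinc finger regulator of this group of genes, rose by 2.77 (SE 0.34), Grb10, an adaptor that dampens insulin signalling, by 2.38 (SE 0.14), Mest by 2.09 (SE 0.18) and Peg10 by 1.43 (SE 0.23). In recovery Plagl1 fell by 2.69, Grb10 by 2.34 and Mest by 2.10, and by limma none of the 10 was called against the control group, with 1 lower at an unadjusted p under 0.05. In recovery against TAA 5 were called lower (14.3% of all tested genes), Ndn (-1.28) being the fifth. However, the call of Peg10 (-1.11) was lost without any 1 of the TAA mice, recovery mouse 1 or recovery mouse 2. The call of Ndn was lost in 2 of 9 alternatives that kept all mice, with a log2 fold change as small as -0.26. The call of Peg10 in the TAA group was lost with quantile normalization (0.63) and with 1 added to each FPKM (0.64). With FPKM as deposited or scaled by their total, 7 of the 10 were called higher in the TAA group.

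The liver genes that respond to Zhx2 moved in both directions. Of 6 such genes beside Afp and Gpc3, 2 were called higher and 4 lower in the TAA group (17% and 8.02% of all tested genes). All 6 were called in the opposite direction in recovery, where 7.12% of all tested genes were called higher and 14.3% lower. Lpl, encoding lipoprotein lipase, which adult hepatocytes normally keep low and which Zbtb20 also holds down, rose by 1.97 (SE 0.13) in the TAA group and fell by 1.65 in recovery. Cyp2a4, a female-biased cytochrome P450 gene, rose by 6.61 (SE 0.21), from a mean scaled FPKM of 1.55 to 157, and returned to 1.63. Elovl3, a male-biased fatty acid elongase gene, fell from a mean of 68.6 to 0.0982, and Cyp4a12a and Mup20, both male-biased, fell by 4.81 and 2.21, the call of Mup20 being lost with quantile normalization (-0.62). In recovery Elovl3 reached 167 and was called above the control group by 1.27 (SE 0.22, limma adjusted p = 0.0398), a call that was lost when any 1 mouse was left out. Cyp2a4, Cyp4a12a and the Mup genes have near-identical copies, so reads could be split between copies. The lower expression of male-biased genes and the higher expression of a female-biased gene were not tested against Zhx2 level, which differed by less than 2-fold.

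Of 3 other liver genes that respond to Zbtb20, Lpl rose, Egfr, the epidermal growth factor receptor gene, fell by 1.28 (SE 0.14), and Mlxipl, encoding the glucose-sensing factor ChREBP, had a log2 fold change of -0.88 and was not called. Egfr lost its call with FPKM as deposited, with quantile normalization and with scaling by the FPKM total (-0.65, -0.77 and -0.46).

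Among 17 other factors reported to act at the Afp promoter, most had differences under 2-fold. In the TAA group 1 was called higher and 2 lower by limma, where 17% and 8.02% of all tested genes were called, with a median log2 fold change of -0.57 against 0.02 for all tested genes. At an unadjusted p under 0.05 (limma) 2 were higher and 13 lower, as were 30.9% and 29.1% of all tested genes. In recovery versus TAA 12 were higher and 1 lower (27.5% and 29.3% of all tested genes). These counts are with median-of-ratios scaling, and the list was chosen with these data known. Cebpa and Hnf4a, both activators of the adult hepatocyte programme, fell. The scaled FPKM of Cebpa was 204, 195 and 190 in control mice 1, 2 and 3 and 74.1, 58.7 and 80.6 in the TAA mice, a log2 fold change of -1.48 (SE 0.13). That of Hnf4a had means of 215 ± 23.0 and 98.8 ± 7.72 (SD, n = 3), a log2 fold change of -1.11 (SE 0.11), and rose by 1.07 in recovery. Trp53, which encodes p53, a repressor of Afp, rose by 1.01 (SE 0.10) to a mean of 10.8, a call that was lost without control mouse 1 (0.94) or TAA mouse 1 (0.99). The calls of Cebpa and Hnf4a were lost with FPKM as deposited (-0.84 and -0.48), with quantile normalization (-0.76 and -0.31) and with scaling by the FPKM total (-0.65 and -0.29), and the call of Hnf4a in recovery was lost with the same 3 scalings (0.51, 0.36 and 0.30) and without TAA mouse 3 or recovery mouse 1.

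**Figure D5:**
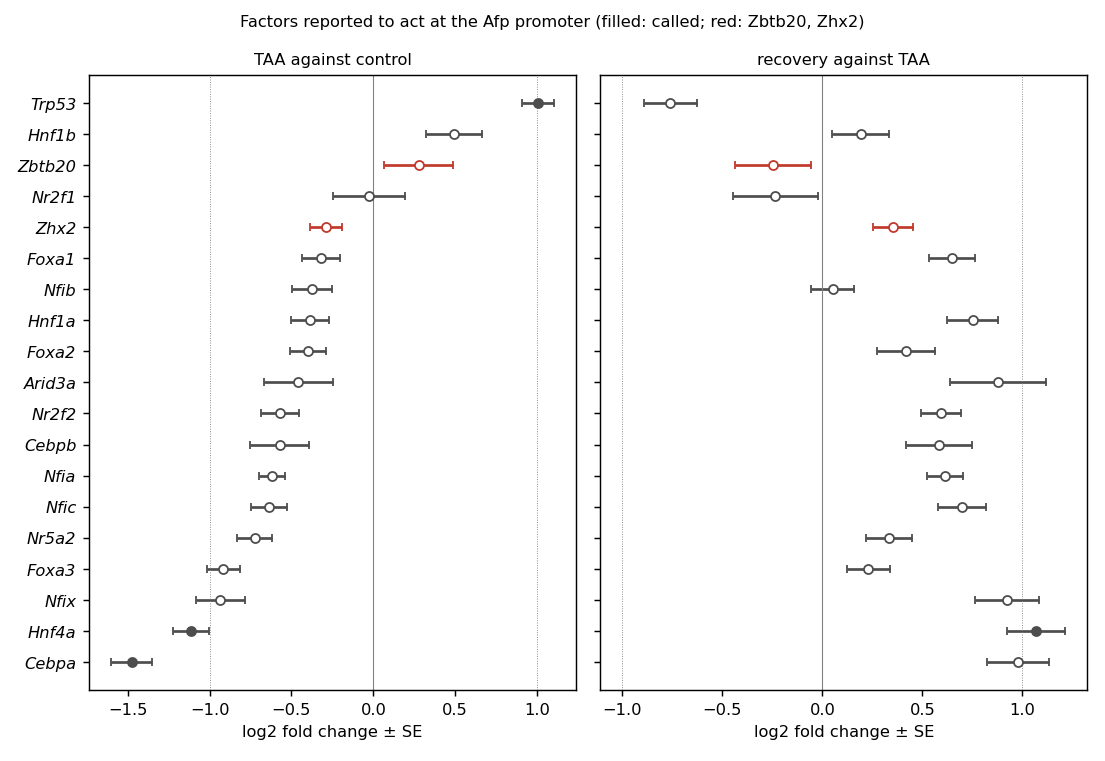
Log2 fold change with SE (horizontal axis) of Zbtb20, Zhx2 (red) and 17 other factors reported to act at the Afp promoter, in TAA versus control and in recovery versus TAA, with filled points for called genes and dotted lines at 2-fold. Cebpa (-1.48) and Hnf4a (-1.11) are called lower and Trp53 (1.01) higher in the TAA group with median-of-ratios scaling, whereas the fall of Cebpa and Hnf4a is under 2-fold with the 3 other scalings.

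Of 9 tested relatives of the 6 genes, 1 was called higher and 1 lower in TAA versus control, against 17% and 8.02% of all tested genes. In the albumin family, which sits with Afp on chromosome 5, Alb, Afm and Gc were not called in any comparison. Alb (-0.48) and Gc (-0.50) were lower in every TAA mouse than in every control mouse, as were 31% of all tested genes. In recovery they were higher than in every TAA mouse (0.79 and 0.49), as were 29.4% of genes. Mean scaled FPKM of Afm was 64.2 ± 2.56, 63.8 ± 7.36 and 72.7 ± 4.64 in the control, TAA and recovery groups (SD, n = 3). Of the other glypicans, Gpc6 rose by 1.54 (SE 0.17) in the TAA group and fell by 1.44 in recovery (0.84 and -0.89, not called, with quantile normalization), whereas Gpc1 fell by 1.12 (SE 0.16) and rose by 1.52, with a call in the TAA group that was lost without control mouse 1 (-0.97) and with FPKM as deposited (-0.49) or scaled by their total (-0.30). Igf2bp2, the family member of adult tissues, had means of 0.334 ± 0.0806, 0.419 ± 0.0440 and 0.453 ± 0.142 and was not called. Zhx1 and Zhx3, the relatives of Zhx2, were not called in the TAA group, with log2 fold changes of -0.43 (SE 0.09) and -0.92 (SE 0.09), and Zhx3 was called higher in recovery at 1.03, a call lost without TAA mouse 3 and with the 3 other scalings (0.27 to 0.76). The sign for Zhx1 turned to 0.20 with FPKM as deposited, as that of Zhx2 did.

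Markers of dividing cells and of some cell types moved with the fetal genes, whereas hepatocyte markers moved the other way. All 8 proliferation markers were called higher in the TAA group, where 17% of all tested genes were called higher and 8.02% lower. Their summed scaled FPKM was 1.40 to 2.13 in control mice, 32.4 to 44.7 in TAA mice and 3.68 to 5.96 in recovery mice. It was highest in TAA mouse 2, the mouse with the highest Afp. TAA mouse 1 had a higher sum than TAA mouse 3 (35.7 and 32.4) but a lower scaled FPKM of Afp (30.9 and 38.1). The sums of the recovery mice lay above those of every control mouse, whereas Afp in recovery lay below every control mouse. Of 10 stellate and myofibroblast markers 8 were called higher, and the sum was 78.3 to 130, 318 to 408 and 109 to 148 in the control, TAA and recovery groups. Of 11 hepatocyte markers 7 were called lower and the sum was 44968 to 49433, 22913 to 30061 and 52056 to 55266. Of 5 tested mesothelial markers 2 were called higher, with sums of 1.20 to 1.84, 2.45 to 6.16 and 0.966 to 2.63. Macrophage markers had 1 of 6 called higher, and 0 of 5 sinusoidal endothelial and 0 of 6 lymphocyte markers were called by limma in the TAA group. At an unadjusted p under 0.05 (limma) 1 endothelial marker was lower and 3 lymphocyte markers were higher, as were 29.1% and 30.9% of all tested genes. The part of these cell types in the levels of Afp, Gpc3, Dlk1 and Igf2bp3 was not tested.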

How the data were processed

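The 6 genes and all gene lists were chosen with earlier results of these data known. The authors sequenced liver RNA from 9 mice (3 per group), mapped paired reads to mm10 with HISAT2 (version 2.2.1, per the submitters' processing notes), counted them with featureCounts (version 1.5.0-p3) and deposited FPKM, without further scaling between libraries. The strand setting and the annotation release were not given in the sources used here, and read counts were not used here. Samples were grouped by the labels.

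Libraries were put on one scale with median-of-ratios factors over the 14005 genes above 0 in all 9 libraries. Groups were compared on log2(scaled FPKM + 0.1) with limma 3.58.1 in R 4.3.3 (lmFit, eBayes with a trend), for the 14094 genes whose mean FPKM reached 0.1, using the 6 libraries of the compared groups. The Benjamini-Hochberg adjustment ran over all tested genes, and a gene was called where the FDR was < 0.05 and the change 2-fold or more. The steps were tested on simulated data. No p is given for the 6 genes, because they were selected on these values. The gene lists were also chosen with these data known, so a p of a listed gene is a description. Named genes are the 6, genes of the fixed lists, and the 3 tested genes whose pattern over the libraries was most like that of each of the 6. Genes with 1 transcript gave an estimate of depth through the spacing of their low FPKM, and 52.3% to 59.4% of low values per library came within 0.05 of a whole number of fragments, too few for a count test, so fragment numbers are estimates and cover counting error only. Fragment numbers use exon lengths of GENCODE M21, which may differ from those of the authors. The Afp locus of the table is wider than in that release. Figures were drawn with matplotlib 3.10.9 in Python 3.11.15, and tables were read with pandas 2.3.3. Promoter sequences are from RefSeq (GRCm38.p6), where 5 of the 6 genes matched by symbol and Zhx2 did not. Alternatives to the added value, the filter, the scaling, the fit, the block and the set of mice were tried. The labels do not say that the mice were housed or handled independently, so p-values measure the spread between these animals.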

Additional observations from a re-analysis of the deposited data

How the results depend on the processing

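The 4 fetal genes kept their direction in the TAA group and in recovery under all alternatives. Of the 6 genes, 4 were called in each of these comparisons without any single mouse, 5 with scaling by the FPKM total (Zbtb20 added), and 2 with 1 added to each FPKM or a mean FPKM of at least 1, where Dlk1 and Igf2bp3 lost their call or were not tested. Igf2bp3 also lost its call with quantile normalization. None of the 6 was called in recovery versus control under any setting of limma. Over all genes, 3520 were called in TAA versus control and 3017 in recovery versus TAA. With 1 added these counts were 1780 and 1460, with a mean FPKM of at least 1 they were 2204 and 1895, and with scaling by the FPKM total 5805 and 5159. The share called higher in the TAA group was 67.9%, against 91.2% with FPKM as deposited, 94.3% with scaling by the FPKM total, 50.0% with 1 added, 53.4% with a mean FPKM of at least 1 and 53.1% with quantile normalization. In recovery versus control 140 genes were called, against 80 with 1 added, 48 with no filter, 235 with all 9 libraries in 1 fit, 85 without a trend and 32 to 108 without 1 mouse.

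Same-numbered mice are not said to be paired, and r between the deviations of same-numbered mice was -0.07 to 0.12, against -0.11 to 0.13 for other pairs. With the replicate number as a block, 3517, 3026 and 17 genes were called in TAA versus control, recovery versus TAA and recovery versus control, and the calls of the 6 genes were the same. The block ended the calls of Epcam and Elovl3 in recovery versus control.

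Signs turned for genes with small differences, and the cause was not tested beyond the scaling itself. With FPKM as deposited, the log2 fold changes in the TAA group were 0.34 for Zhx2, 0.16 for Alb, 0.62 for Afm and 0.20 for Zhx1, and in recovery -0.20 for Zhx2, -0.37 for Afm, -0.40 for Igf2bp2 and -0.087 for Zhx1. With scaling by the FPKM total, those in the TAA group were 0.52 for Zhx2, 0.35 for Alb, 0.81 for Afm and 0.38 for Zhx1, and in recovery -0.40 for Zhx2, -0.57 for Afm, -0.56 for Igf2bp2 and -0.29 for Zhx1. With quantile normalization, they were 0.59 for Afm, -0.64 for Igf2bp2 and -0.25 for Ndn in the TAA group, and -0.38 for Afm in recovery. Without 1 mouse, Afm in the TAA group was -0.068 to 0.091, Igf2bp2 in recovery -0.13 to 0.22, and in recovery versus control Gpc3 was -0.32 to 0.73 and Zbtb20 -0.088 to 0.15. Counts on the gene lists were taken under the same alternatives after the data were seen. The count of the fetal list was 9 to 14 called higher in the TAA group and 9 to 14 called lower in recovery. Of the factors at the Afp promoter, 1 to 3 were called higher in recovery without 1 mouse. The depth limits Dlk1 and Igf2bp3 outside the TAA group, where they rest on under 8 estimated fragments.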
